A study of Mus musculus with 23 samples.

Results

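The genes of the collagen chains were followed in punched mouse ears. A row of the deposited table was taken as a collagen chain when its 1 annotated gene symbol read Col, a number, a and a number. The pattern was met by 46 of 35556 rows. They belonged to 44 genes of the 19938 genes tested, and a gene with more than 1 row was represented by the brightest on average. The 44 chains were split by known structure or tissue into 8 fibrillar chains, 7 cartilage chains, 6 basement membrane chains of type IV, 4 chains of the basement membrane zone, 6 FACIT chains (fibril-associated collagens with interrupted triple helices), 7 beaded filament and related chains, 2 network-forming type VIII chains and 4 transmembrane and other chains. Chains of types II, IX, X and XI were counted under cartilage whatever their structure, and not again in the fibrillar, FACIT or network-forming classes.

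Collagens are trimers of chains that wind into a triple helix, and each chain is the product of its own gene. In skin, fibroblasts lay down the type I, III and V fibrils that carry tension, with FACIT collagens on the fibril surface and type VI beaded filaments between them. Type IV networks form the basement membranes under the epidermis and around vessels, types VII and XVII anchor the epidermis, and types II, IX, X and XI belong to cartilage such as the plate inside the ear.

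The study punched ears of 4-week-old female mice and profiled ear pinna tissue on Affymetrix Mouse Gene 1.0 ST arrays, 23 in all. Mutant mice, called cub below, were Rhbdf2cub/cub of the strain B6.Cg-Rhbdf2cub/J and gave 11 arrays. Wild-type mice were Rhbdf2+/+ C57BL/6J and gave 12 arrays. Rhbdf2 encodes iRhom2, a rhomboid-like protein that controls the release of epidermal growth factor receptor ligands, and cub mice carry the mutated allele in every cell. Tissue was taken at 0 h from mice labelled as controls without ear punch, and at 15 min, 2 h and 24 h after a 2-mm hole had been punched. At the wounded times a 3-mm punch took the 1-mm rim of the hole. The labels give no separate way of taking the 0 h tissue. Each of the 8 groups had 3 arrays from separate biological replicates, except cub at 15 min with 2. The question was how genotype and wounding relate to collagen transcript levels.

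All values are log2 RMA values, which compare 1 gene between arrays and not 1 gene with another. The array medians lay between 6.37 and 6.46, and no 2 arrays held identical values. Chains also shifted together within groups: 42 of 44 lay above their group mean in cub 15 min replicate 3 and again in wild-type 2 h replicate 2. In wild-type 2 h replicate 3 only 3 did. The same count was not made over all genes, so the shift is not read as particular to collagens. The ear label was borne out by Krt5 and Krt14 (basal epidermis, 12.63 to 13.01 over all arrays), and by Acan (cartilage, 8.69 to 10.10), while the cartilage matrix gene Matn1 was dim at 4.82 to 5.23. Rhbdf2 itself read 9.07 to 9.14 in cub ears, against 8.64 to 8.76 in wild-type ears, at 0 h. Its ranges at 2 h overlapped, with 8.93 to 9.14 in cub ears against 8.95 to 9.03 in wild-type ears. The position of these probes against the cub allele was not looked up, so Rhbdf2 does not serve as a check of the genotype labels. In bulk tissue, fewer cells of a type and less RNA per cell cannot be told apart.

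Promoter windows, 250 bases before to 50 after the annotated start, were read from RefSeq on GRCm38.p6 for 35 of the 44 chains. The windows below are those of the 2 type IV gene pairs whose members were called after wounding and of 2 fibrillar chains. Capitals mark matches, on either strand, to 4 short motifs: the CCAAT motif, the TATA box spelled TATAAA, the GC box spelled GGGCGG and the AP-1 site spelled TGANTCA. The Col4a1 window (chr8:11312777-11313076, minus strand) and the Col4a2 window (chr8:11312555-11312854, plus strand) are read in opposite directions and share 78 bases:
Col4a1: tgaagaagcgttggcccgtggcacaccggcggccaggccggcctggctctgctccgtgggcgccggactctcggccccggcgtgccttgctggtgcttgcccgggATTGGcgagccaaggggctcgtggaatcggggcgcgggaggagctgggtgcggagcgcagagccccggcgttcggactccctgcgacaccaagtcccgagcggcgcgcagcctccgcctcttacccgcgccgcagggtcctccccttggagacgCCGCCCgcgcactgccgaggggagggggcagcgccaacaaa
Col4a2: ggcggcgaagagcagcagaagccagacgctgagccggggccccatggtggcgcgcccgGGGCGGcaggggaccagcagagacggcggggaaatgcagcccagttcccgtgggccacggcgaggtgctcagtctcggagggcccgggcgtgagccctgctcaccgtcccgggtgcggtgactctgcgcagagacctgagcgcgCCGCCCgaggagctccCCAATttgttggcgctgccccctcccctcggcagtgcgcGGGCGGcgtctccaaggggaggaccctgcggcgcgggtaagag

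The windows of Col4a6 (chrX:141474027-141474326, minus strand) and Col4a5 (chrX:141475169-141475468, plus strand) are also read in opposite directions, and their starts lie 1343 bases apart:
Col4a6: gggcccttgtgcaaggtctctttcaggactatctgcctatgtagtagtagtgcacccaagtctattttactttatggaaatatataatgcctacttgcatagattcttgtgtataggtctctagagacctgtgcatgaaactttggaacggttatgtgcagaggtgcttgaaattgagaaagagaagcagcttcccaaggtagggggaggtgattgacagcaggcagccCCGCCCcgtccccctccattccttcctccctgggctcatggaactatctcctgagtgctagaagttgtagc
Col4a5: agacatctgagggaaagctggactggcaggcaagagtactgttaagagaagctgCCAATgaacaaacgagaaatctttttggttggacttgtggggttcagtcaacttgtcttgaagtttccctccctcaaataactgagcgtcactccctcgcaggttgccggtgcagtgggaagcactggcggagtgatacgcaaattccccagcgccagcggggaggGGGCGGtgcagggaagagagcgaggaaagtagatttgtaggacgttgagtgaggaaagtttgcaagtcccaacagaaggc

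Col1a2 (chr6:4505368-4505667, plus strand) and Col3a1 (chr1:45311288-45311587, plus strand) encode chains of the main dermal fibrils:
Col1a2: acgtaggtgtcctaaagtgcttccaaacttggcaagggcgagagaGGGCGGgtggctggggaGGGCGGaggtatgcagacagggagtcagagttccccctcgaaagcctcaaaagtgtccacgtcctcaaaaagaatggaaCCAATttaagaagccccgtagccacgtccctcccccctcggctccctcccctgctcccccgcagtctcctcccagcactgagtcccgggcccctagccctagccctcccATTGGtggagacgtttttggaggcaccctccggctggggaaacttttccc
Col3a1: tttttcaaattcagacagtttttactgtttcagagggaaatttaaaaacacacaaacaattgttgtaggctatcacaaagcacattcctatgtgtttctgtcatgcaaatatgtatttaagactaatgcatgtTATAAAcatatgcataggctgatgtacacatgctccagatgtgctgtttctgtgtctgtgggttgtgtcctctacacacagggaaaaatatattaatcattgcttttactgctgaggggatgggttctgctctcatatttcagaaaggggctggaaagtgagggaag

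The GC box letters stood in both windows of the Col4a1 and Col4a2 pair, in both of the Col4a6 and Col4a5 pair and in Col1a2, while the Col3a1 window held TATAAA alone. The only Col4a1 match lies in the 78 shared bases. It is the same site as 1 of the 3 Col4a2 matches, read from the other strand, and counts in both windows. Over all chains, GGGCGG was found in 60.5% of the 38 windows of these 35 chains (a gene may have more than 1), against 35.7% of all 32851 windows of the same length. CCAAT was found in 34.2% of collagen windows against 37.4% of all, TATAAA in 13.2% against 13.6%, and TGANTCA in 2.63% against 7.81%. The motifs were counted one by one, so a match may overlap another motif. These matches describe letters only.

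At 24 h after wounding most of the chains that changed fell, but 5 rose in both genotypes. In cub ears 5 chains were higher and 22 lower than at 0 h, and in wild-type ears 5 were higher and 23 lower (limma, Benjamini-Hochberg adjusted p under 0.05 over all genes). Of all genes tested, 21.1% were called higher and 24.9% lower in cub ears, and 20.5% higher and 22.4% lower in wild-type ears. The median change of the 44 chains was -0.21 in cub ears and -0.22 in wild-type ears, beside medians of -0.0033 and -0.02 over all genes. The 5 risers were the same in both genotypes: Col4a1, Col4a2, Col12a1, Col18a1 and Col23a1. Of the chains that fell, 18 were shared, which is 81.8% of those in cub ears and 78.3% of those in wild-type ears.

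**Figure D1:**
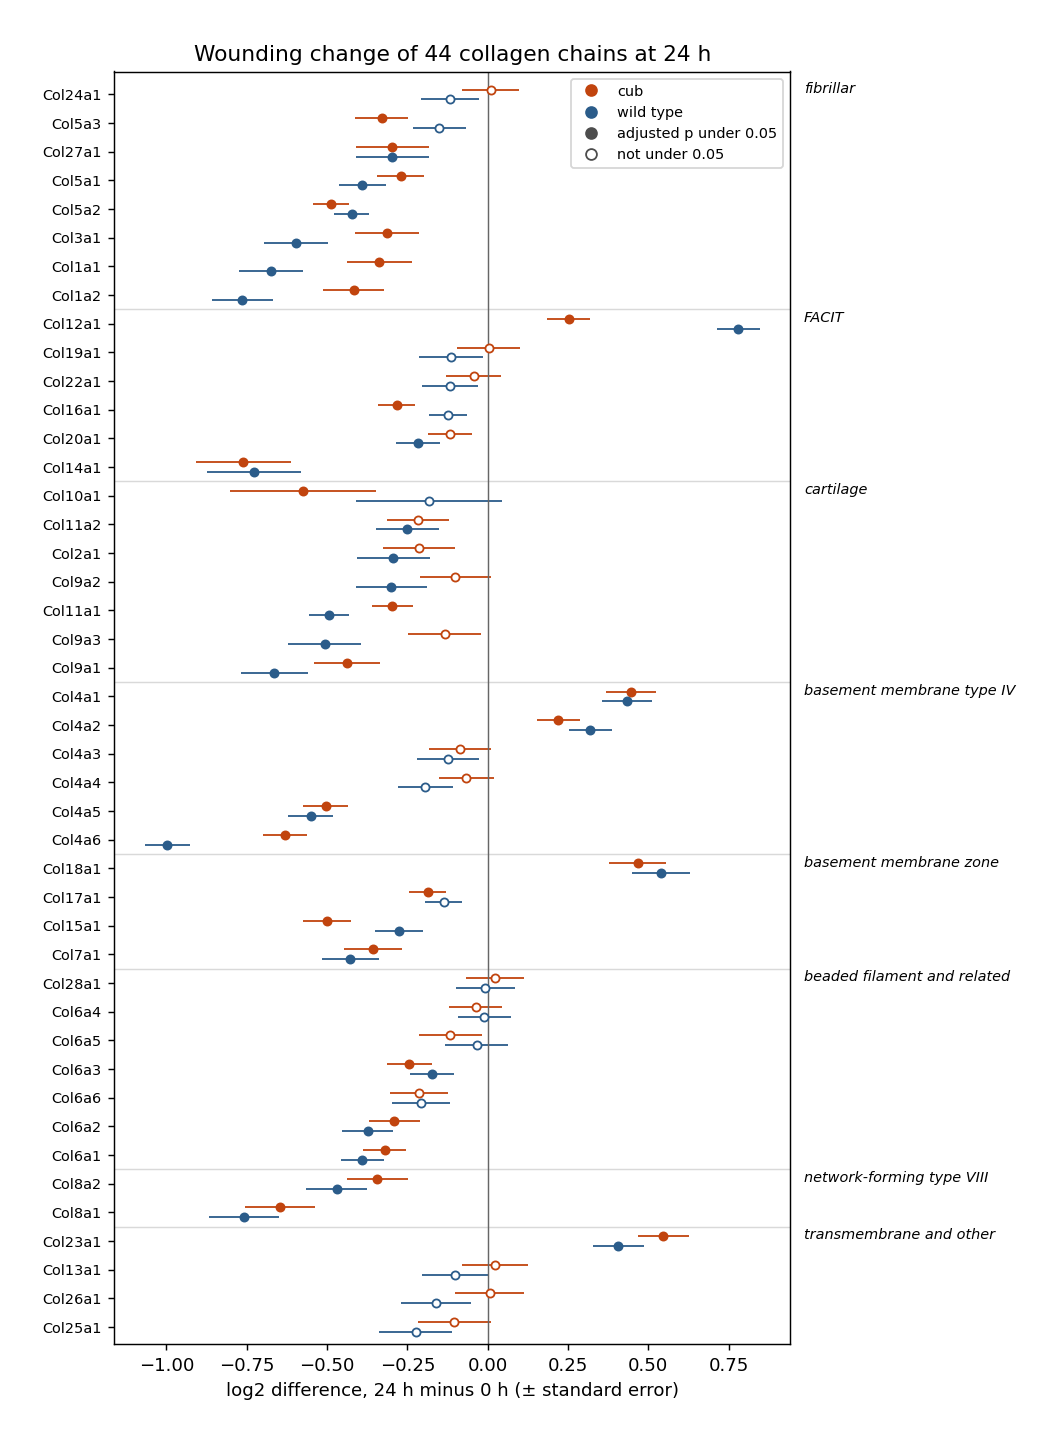
Wounding change of each of the 44 collagen chains, as the log2 difference of 24 h minus 0 h with its standard error, in cub (orange, upper point) and wild-type ears (blue, lower point), by class. Filled points have an adjusted p under 0.05: 27 chains in cub and 28 in wild-type ears, with Col4a1, Col4a2, Col12a1, Col18a1 and Col23a1 to the right of 0 in both.

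Most of the fibrillar chains fell. Of the 8, 7 were lower in cub ears (median change -0.32) and 6 in wild-type ears (median -0.41), and none was higher. Col1a1, the main chain of type I collagen, read 11.25, 11.46 and 11.31 in cub ears at 24 h, against 11.66, 11.56 and 11.81 in cub ears at 0 h. Wild-type ears read 10.52, 10.89 and 10.87 at 24 h, against 11.57, 11.46 and 11.27 at 0 h. The wounded arrays lay below the unwounded ones in both genotypes. The difference was -0.34 ± 0.10 (standard error, adjusted p = 0.00791) in cub and -0.67 ± 0.10 (8.89e-06) in wild-type ears. Col1a2, the second chain of the same trimer, read 10.88, 11.07 and 10.92 in cub ears at 24 h, against 11.35, 11.28 and 11.49 at 0 h. The wild-type arrays read 10.22, 10.66 and 10.52, against 11.35, 11.24 and 11.10. It fell by 0.42 in cub ears (adjusted p = 0.000926) and by 0.76 in wild-type ears (9.03e-07), 1.33-fold and 1.70-fold.

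Col3a1, whose product forms thinner fibrils beside type I, read 10.39, 10.58 and 10.51 in cub ears at 24 h, against 10.75, 10.70 and 10.97 at 0 h. Wild-type ears gave 9.73, 10.04 and 9.96, against 10.64, 10.58 and 10.30. It was lower without overlap in both genotypes, by 0.31 in the cub comparison (log2 difference -0.31, adjusted p = 0.0124) and by 0.60 in the wild-type comparison (log2 difference -0.60, 3.64e-05). Col5a1 and Col5a2 encode the type V chains that start fibrils. Col5a2 read 7.50, 7.56 and 7.63 in cub ears at 24 h, against 7.99, 8.11 and 8.05 at 0 h, and 7.26, 7.37 and 7.26 in wild-type ears, against 7.79, 7.71 and 7.66. It had the log2 differences -0.49 ± 0.06 (adjusted p = 1.72e-07) in cub and -0.42 ± 0.06 (1.58e-06) in wild-type ears. Col5a1 read 7.79, 7.90 and 7.89 in cub ears at 24 h, against 8.11, 8.03 and 8.25 at 0 h, and 7.50, 7.66 and 7.64 in wild-type ears, against 8.09, 7.96 and 7.92. It was lower in both, with -0.27 ± 0.07 and -0.39 ± 0.07. Of the rest, Col5a3 fell in cub ears (-0.33) and missed the threshold in wild-type ears (-0.15), Col27a1 was at -0.30 in both, and Col24a1 was not called in either. The cub calls of Col1a1 and Col3a1 were lost without cub 0 h replicate 3 (adjusted p = 0.053 and 0.0884), and that of Col3a1 also without cub 24 h replicate 1. Those of Col27a1 were lost in 6 of 13 alternatives in each genotype.

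Fibroblast markers moved less uniformly. Of 7, 1 was higher and 4 lower in cub ears at 24 h (median -0.21), and 1 was higher and 3 lower in wild-type ears (median -0.17). Pdgfra, the receptor that marks fibroblasts, rose by 0.83 in cub ears and 0.78 in wild-type ears. The log2 summed level of the 7 markers was 13.67 to 13.81 in cub ears at 24 h, against 13.89 to 14.03 at 0 h. Wild-type ears had 13.53 to 13.72, against 13.8 to 13.9. The part of fibroblast content in the fibrillar changes was not tested.

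The 6 type IV chains split by gene pair. Each of the pairs Col4a1 and Col4a2, Col4a3 and Col4a4, and Col4a5 and Col4a6 lies side by side with 0 coding genes between the members on GRCm38.p6. The first pair rose, the third fell, and the second was not called. Col4a1, of the network found in nearly all basement membranes, read 8.39, 8.24 and 8.45 in cub ears at 24 h, against 7.75, 7.95 and 8.04 at 0 h. Wild-type ears read 7.91, 8.15 and 8.11, against 7.67, 7.58 and 7.62. The rise was 0.45 ± 0.08 (adjusted p = 5.37e-05) in cub and 0.43 ± 0.08 (9.04e-05) in wild-type ears. Its partner Col4a2 read 8.22, 8.13 and 8.21 in cub ears, against 7.89, 8.03 and 7.98, and 7.95, 8.10 and 8.02 in wild-type ears, against 7.79, 7.67 and 7.65. It rose by 0.22 (adjusted p = 0.00886) and 0.32 (0.000401), a call lost in cub ears without cub 0 h replicate 1 (0.0545).

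Col4a6, an epithelial type IV chain, had the largest fall of any chain in wild-type ears. It read 5.73, 5.57 and 5.69 in cub ears at 24 h, against 6.39, 6.16 and 6.33 at 0 h, a log2 difference of -0.63 ± 0.07 (adjusted p = 1.08e-07). The wild-type arrays read 5.56, 5.67 and 5.65, against 6.55, 6.76 and 6.56, a difference of -1.0 ± 0.07 (1.61e-10) and 2.00-fold. The 24 h levels of the genotypes overlapped, and the genotypes were further apart at 0 h. Col4a5 read 6.21, 6.08 and 6.26 in cub ears, against 6.65, 6.60 and 6.81, and 6.14, 6.22 and 6.32 in wild-type ears, against 6.80, 6.78 and 6.75. It fell by 0.50 (3.17e-06) in cub ears and by 0.55 (1.21e-06) in wild-type ears. Col4a3 and Col4a4 changed by -0.09 and -0.07 in cub ears and by -0.12 and -0.19 in wild-type ears, all short of the threshold. Endothelial markers, whose cells rest on type IV membranes, were called higher for 1 of 6 and lower for 1 of 6 in cub ears at 24 h (median 0.03). In wild-type ears 4 were higher and 1 lower (median 0.34). The cub counts lay near the shares of all genes called in cub ears (21.1% higher and 24.9% lower). In wild-type ears those shares were 20.5% and 22.4%. The part of endothelial cells was not tested.

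**Figure D2:**
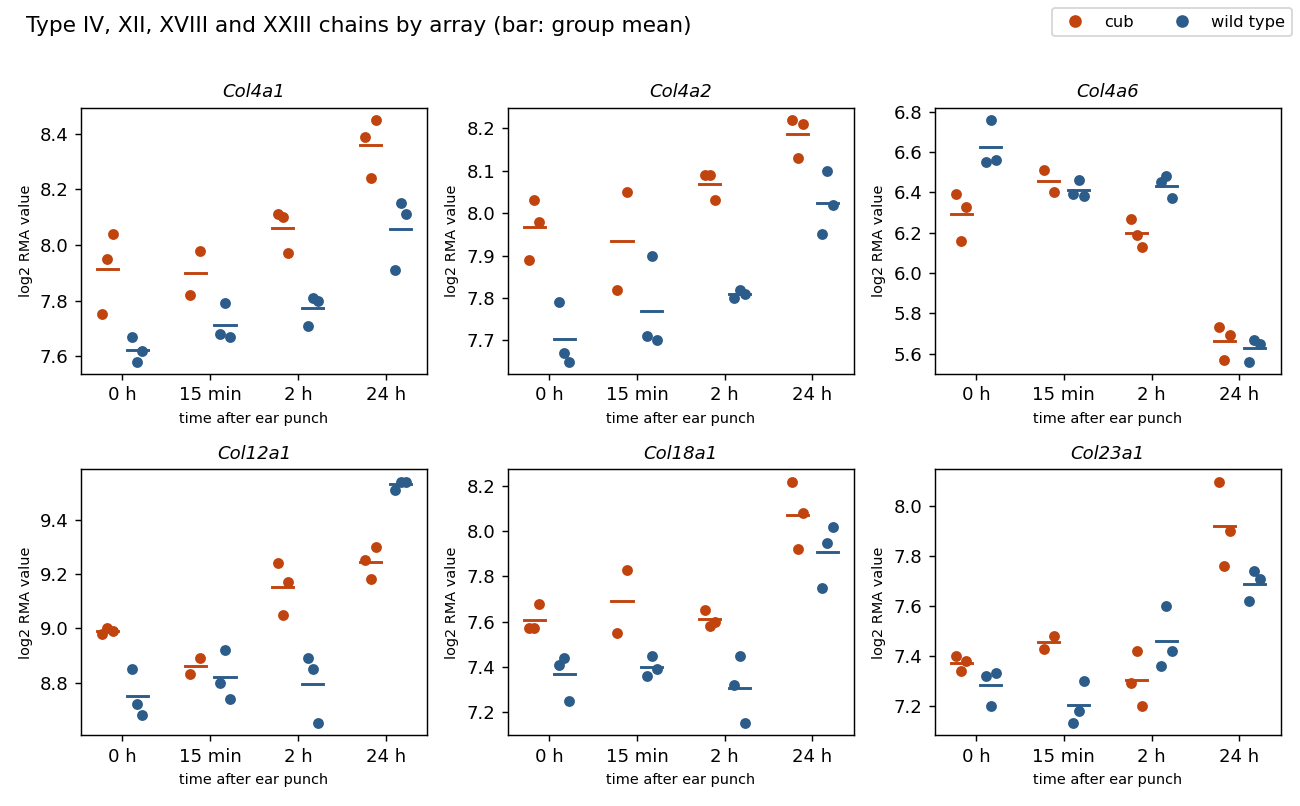
Log2 RMA value of Col4a1, Col4a2, Col4a6, Col12a1, Col18a1 and Col23a1 in each array by time after ear punch, in cub (orange) and wild-type ears (blue), with bars at the group means. Col4a6 lies at 5.56 to 5.73 in all 24 h arrays, and Col12a1 reaches 9.51 to 9.54 in wild-type ears at 24 h, above the 9.18 to 9.30 of cub ears.

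The other basement membrane zone chains moved both ways. Col18a1, the source of endostatin, read 8.22, 7.92 and 8.08 in cub ears at 24 h, against 7.57, 7.57 and 7.68 at 0 h. Wild-type ears gave 7.75, 7.95 and 8.02, against 7.41, 7.44 and 7.25. It rose by 0.47 (adjusted p = 0.000157) and 0.54 (3.49e-05). Col7a1, the anchoring fibril chain, read 7.51, 7.24 and 7.54 in cub ears, against 7.85, 7.57 and 7.94, and 7.34, 7.37 and 7.47 in wild-type ears, against 7.81, 7.81 and 7.84. It was lower without overlap, with -0.36 ± 0.09 in cub and -0.43 ± 0.09 in wild-type ears. Col15a1, found at vessel and muscle basement membranes, read 7.66, 7.59 and 7.82 in cub ears, against 8.16, 8.24 and 8.17, and 7.62, 7.43 and 7.40 in wild-type ears, against 7.74, 7.74 and 7.80. It fell by 0.50 (7.21e-06) and by 0.28 (0.0041). Markers of vessel walls and muscle fell at the same time. Pericyte and smooth muscle markers were lower for 4 of 5 in both genotypes, with log2 summed levels of 10.83 to 10.97 in cub ears at 24 h against 11.30 to 11.35 at 0 h, and 10.84 to 10.99 in wild-type ears against 11.15 to 11.21. Skeletal muscle markers were lower for 6 of 6 in both, with 13.40 to 13.65 in cub ears against 14.06 to 14.14, and 13.05 to 13.43 in wild-type ears against 13.80 to 13.94. Their part in the fall of Col15a1 was not tested. Col17a1, a hemidesmosome component of basal keratinocytes, read 11, 10.97 and 10.83 in cub ears at 24 h, against 11.14, 11.10 and 11.12 at 0 h. In wild-type ears it read 10.96, 11.10 and 11.18, against 11.20, 11.28 and 11.17, which overlap. Its change was -0.19 in cub ears (adjusted p = 0.0102, and 0.0795 without cub 24 h replicate 3) and -0.14 in wild-type ears (0.062).

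The FACIT chains held the largest riser of wild-type ears, Col12a1, and the largest faller of cub ears, Col14a1. Col12a1, which sits on type I fibrils of tissue under load, read 9.25, 9.18 and 9.30 in cub ears at 24 h, against 8.98, 9.0 and 8.99 at 0 h. The wild-type arrays read 9.51, 9.54 and 9.54, against 8.85, 8.72 and 8.68. Every wounded array lay above every unwounded one, by 0.25 ± 0.07 (adjusted p = 0.00321) in cub and 0.78 ± 0.07 (3.96e-09) in wild-type ears. Col14a1, a FACIT of mature dermal fibrils, went the other way. It read 8.59, 8.82 and 8.74 in cub ears at 24 h, against 9.30, 9.71 and 9.42, and 8.09, 8.23 and 7.95 in wild-type ears, against 8.98, 8.87 and 8.60. Its differences were -0.76 ± 0.15 (0.000165) and -0.73 ± 0.15 (0.000305). Col16a1 fell in cub ears (-0.28) and Col20a1 in wild-type ears (-0.22), while Col19a1 and Col22a1 passed in neither. With Col9a1, Col9a2 and Col9a3 of the cartilage class counted in, 3 of 9 FACIT chains were lower in cub ears and 5 in wild-type ears. In each genotype 1 of the 9 was higher. Of these 9, 44.4% were called in either direction in cub ears, near the 46% of all genes. In wild-type ears 66.7% were, beside 42.8% of all genes.

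The cartilage chains were lower for 3 of 7 in cub ears (median -0.22) and 6 of 7 in wild-type ears (median -0.30), and higher for none. Col9a1, 1 of the 3 chains of the type IX trimer on cartilage fibrils, read 7.18, 6.94 and 7.19 in cub ears at 24 h, against 7.57, 7.34 and 7.71 at 0 h. Wild-type ears gave 6.90, 7.22 and 7.0, against 7.65, 7.73 and 7.73. It fell by 0.44 (adjusted p = 0.00126) in cub ears and by 0.66 (1.62e-05) in wild-type ears. Its partner Col9a3 read 7.83, 7.58 and 7.77 in cub ears, against 7.97, 7.59 and 8.02, which overlap. In wild-type ears it read 7.51, 7.61 and 7.75, against 8.05, 8.13 and 8.21, a difference of -0.51 (0.000817). Col9a2 read 7.45, 7.20 and 7.27 in cub ears, against 7.32, 7.25 and 7.65, and 7.06, 7.20 and 7.15 in wild-type ears, against 7.44, 7.30 and 7.57. It passed in wild-type ears alone (-0.30, adjusted p = 0.0321) and lost that call in 5 of 13 alternatives.

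Col11a1, a chain of the type XI core of cartilage fibrils, read 7.24, 7.21 and 7.29 in cub ears at 24 h, against 7.47, 7.53 and 7.63 at 0 h. The wild-type arrays read 7.11, 7.01 and 7.06, against 7.47, 7.62 and 7.57. It was lower in both, at -0.30 ± 0.06 (adjusted p = 0.000483) and -0.49 ± 0.06 (1.35e-06). Col11a2 read 7.03, 7.0 and 7.20 in cub ears, against 7.24, 7.10 and 7.54, and 7.01, 7.05 and 7.10 in wild-type ears, against 7.32, 7.23 and 7.36. Col2a1, the main cartilage fibril chain, read 7.47, 7.21 and 7.46 in cub ears, against 7.51, 7.47 and 7.80, and 7.06, 7.36 and 7.22 in wild-type ears, against 7.59, 7.48 and 7.45. Both overlapped in cub ears (-0.22 and -0.21, adjusted p = 0.078 and 0.139). Both passed narrowly in wild-type ears (-0.25 and -0.29, adjusted p = 0.0437 and 0.0405), calls lost in 7 of 13 alternatives. Col10a1, the chain of hypertrophic chondrocytes, spread widely. It read 7.36, 7.55 and 7.70 in cub ears at 24 h, against 7.83, 8.34 and 8.16 at 0 h (-0.57 ± 0.23, adjusted p = 0.0443, lost in 7 of 13 alternatives). Wild-type ears gave 8.17, 7.58 and 7.59, against 7.61, 8.07 and 8.21. For none of the cartilage chains did the change differ between genotypes by the interaction test. For Col9a3 that difference was 0.37 with a 95% interval of 0.04 to 0.71 (adjusted p = 0.374).

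Other chondrocyte genes fell further. Of 11 markers, 9 were lower in both genotypes, with medians of -0.59 in cub and -0.81 in wild-type ears; Matn1 and Matn3 did not pass. Ucma, made in resting and growth zone cartilage, fell by 1.53 and by 1.40. The log2 summed level of the 11 markers was 12.85 to 13.06 in cub ears at 24 h, against 13.77 to 13.81 at 0 h. In wild-type ears it was 12.76 to 13.21, against 13.60 to 13.93. The part of cartilage content in the fall of the cartilage chains was not tested.

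In the remaining classes the main type VI chains fell. Col6a1 read 9.84, 9.93 and 9.89 in cub ears at 24 h, against 10.17, 10.21 and 10.24 at 0 h, and 9.76, 9.87 and 9.65 in wild-type ears, against 10.15, 10.15 and 10.15. Col6a2 read 9.89, 10.06 and 10.03 in cub ears, against 10.25, 10.29 and 10.31, and 9.71, 10.06 and 9.76 in wild-type ears, against 10.24, 10.20 and 10.21. Col6a3, the chain that carries endotrophin, read 9.73, 9.79 and 9.75 in cub ears, against 10.01, 10.04 and 9.95, and 9.71, 9.68 and 9.48 in wild-type ears, against 9.82, 9.77 and 9.80. All 3 were lower without overlap, at -0.32, -0.29 and -0.24 in cub and -0.39, -0.37 and -0.17 in wild-type ears. The Col6a3 call in wild-type ears (adjusted p = 0.0487) was lost in 6 of 13 alternatives. Col6a4, Col6a5, Col6a6 and Col28a1 were not called. A second, dimmer row of Col6a6 did fall, by 0.33 in cub ears (0.00809) and by 0.38 in wild-type ears (0.00311). The brighter row, used above, had -0.21 (0.0627) and -0.21 (0.0761), and the difference between the rows was not tested.

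Col8a1, a short-chain collagen of vessel walls and Descemet's membrane, read 10.70, 11.14 and 11.05 in cub ears at 24 h, against 11.58, 11.65 and 11.60 at 0 h. In wild-type ears it read 11.13, 10.99 and 10.70, against 11.58, 11.71 and 11.80. It fell by 0.65 (adjusted p = 3.51e-05) and by 0.76 (6.07e-06), and its partner Col8a2 fell by 0.34 and by 0.47. Col23a1, a transmembrane collagen of epithelia, rose instead. It read 8.10, 7.76 and 7.90 in cub ears at 24 h, against 7.40, 7.34 and 7.38, and 7.62, 7.74 and 7.71 in wild-type ears, against 7.32, 7.20 and 7.33. The rise was 0.55 (5.35e-06) in cub and 0.41 (0.000214) in wild-type ears. Col13a1, Col25a1 and Col26a1, the other members of that class, were not called.

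Before 24 h few chains changed. At 15 min no chain was called in either genotype, where 0.0251% of all genes were called in cub and 0.0351% in wild-type ears. At an unadjusted p under 0.05 there were 6 chains in cub and 3 in wild-type ears, beside 2905 and 1826 of 19938 genes. At 2 h none was called in wild-type ears, where 7.97% of all genes were. There 2 chains had an unadjusted p under 0.05, as had 4007 of 19938 genes. In cub ears 7 chains were higher at 2 h and none lower, with 7.66% of all genes higher and 4.28% lower. These were 5 of the 8 fibrillar chains (Col1a1, Col1a2, Col3a1, Col5a1 and Col5a2) with Col6a2 and Col6a3. The median change of the fibrillar class was 0.25, beside -0.0067 over all genes. Markers of other cells moved as well in cub ears at 2 h. Adipocyte markers were lower for 3 of 4 (median -0.98), with a log2 summed level of 9.30 to 10.36 at 2 h against 10 to 11.45 at 0 h. Skeletal muscle markers were lower for 2 of 6, with 13.77 to 13.88 against 14.06 to 14.14, and neutrophil markers higher for 4 of 4, with 9.68 to 10.09 against 7.80 to 8.03. None of the 7 fibroblast markers was called (median 0.06). Only 1 of them had an unadjusted p under 0.05, beside 4797 of 19938 genes. The part of these cells in the cub 2 h rise was not tested.

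At 2 h Col1a1 read 12.19, 11.93 and 12.11 in cub ears, above the 0 h values given above (0.40 ± 0.10, adjusted p = 0.0102). Col1a2 read 11.85, 11.64 and 11.77 (0.38, 0.0105), and Col3a1 read 11.30, 11.03 and 11.23 (0.38, 0.0138). Col5a2, with 8.33, 8.32 and 8.35, was higher by 0.28 ± 0.06 (0.00135), and Col6a3, with 10.40, 10.23 and 10.38, by 0.34 ± 0.07 (0.00224). None of these 5 overlapped with cub ears at 0 h. Only the calls of Col5a2 and Col6a3 held in all 13 alternatives. Those of Col1a1, Col1a2 and Col3a1 were lost without cub 2 h replicate 1 and without cub 0 h replicate 2 (adjusted p up to 0.0616, 0.0601 and 0.0779). Col3a1 was also lost without cub 2 h replicate 3 or cub 0 h replicate 1. With either cub 2 h replicate 1 or cub 0 h replicate 2 left out, 2 chains were called in place of 7. Col6a2 (0.27) and Col5a1 (0.22) passed at 0.0284 and 0.0495 and were lost in 6 and 10 of 13 alternatives.

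Between the genotypes, most of the chains that were called stood higher in cub ears. At 2 h 13 of 44 chains were higher and 1 lower, where 3.84% of all genes were higher and 0.577% lower. At 24 h 7 were higher and 1 lower (2.24% and 3.44% of all genes), at 0 h 6 and 1 (3.33% and 1.93%), and averaged over the 4 times 14 and 2 (9.71% and 8.56%). All 7 chains higher at 24 h were among the 13 at 2 h, 53.8% of the 2 h list, and so were all 6 of 0 h, 46.2% of it. By class, the fibrillar chains were higher for 1 of 8 at 0 h (median 0.17), 5 of 8 at 2 h (median 0.41) and 5 of 8 at 24 h (median 0.26), beside medians of all genes of at most 0.0333 in size at any time. The cartilage chains were higher for 1 of 7 at 2 h (Col11a1) and for none at 0 h and 24 h.

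**Figure D3:**
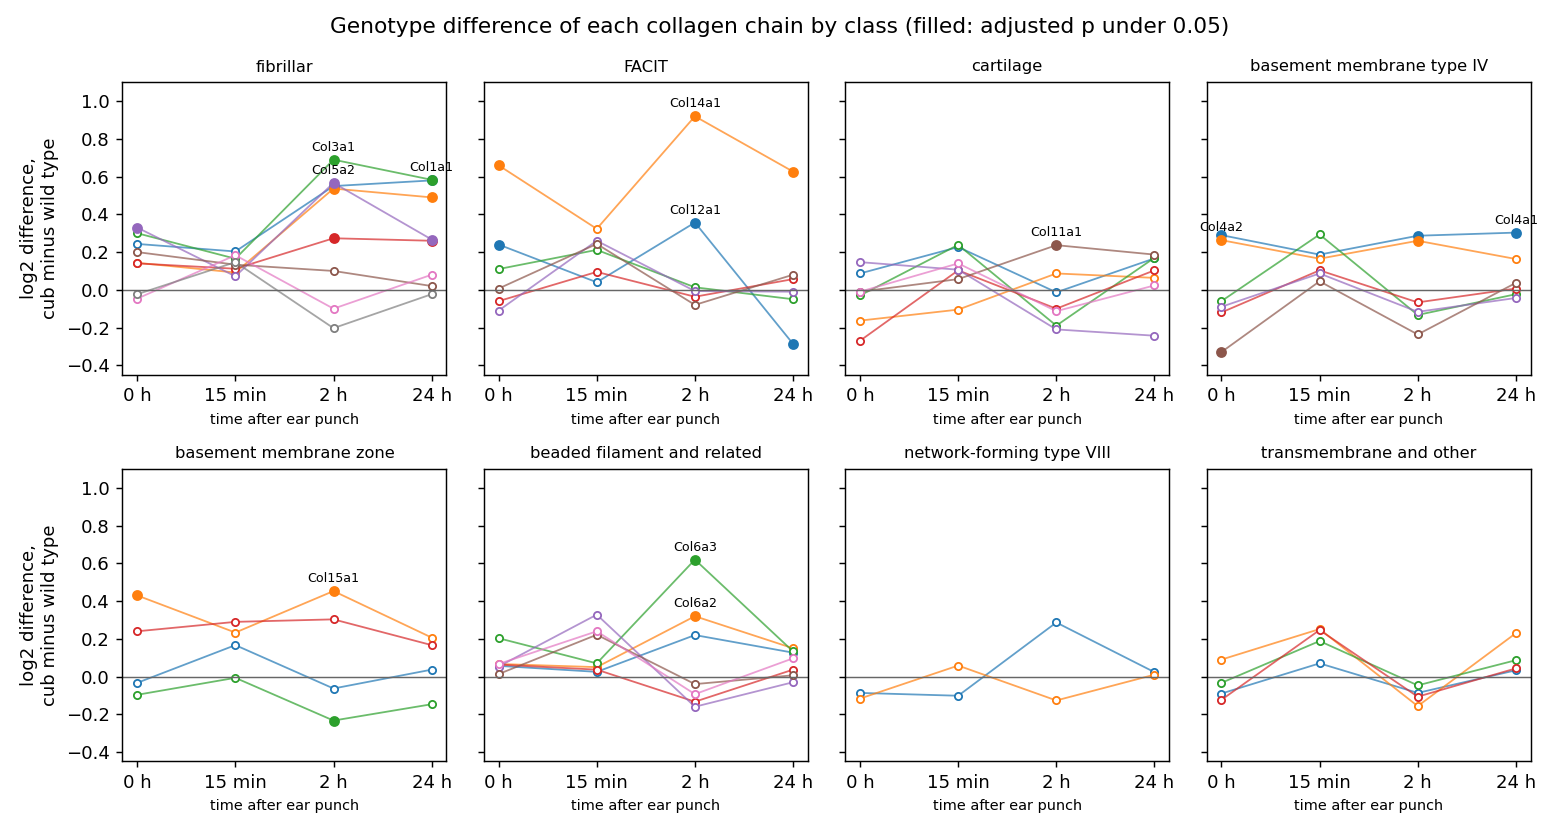
Log2 difference of cub minus wild type for each collagen chain at 0 h, 15 min, 2 h and 24 h after ear punch, 1 panel per class and 1 line per chain, with filled points at an adjusted p under 0.05. Col14a1 stands highest at 0 h, 2 h and 24 h (0.66, 0.92 and 0.63), and the fibrillar chains Col1a1, Col1a2, Col3a1 and Col5a2 lie at 0.54 to 0.69 at 2 h.

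Col14a1 had the largest genotype difference. At 2 h it read 9.87, 9.50 and 9.83 in cub ears, against 8.96, 9.06 and 8.42 in wild-type ears, with no overlap. The difference was 0.92 ± 0.15 (adjusted p = 0.00099, 1.89-fold). At 0 h and 24 h its difference was 0.66 (0.0113) and 0.63 (0.0135). The 0 h call was lost when cub 0 h replicate 2 or replicate 3 of wild type at 0 h was left out (up to 0.0871), and the 24 h call when replicate 3 of either genotype at 24 h was (up to 0.0649).

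Among the fibrillar chains, Col3a1 at 2 h, with the cub values above, read 10.50, 10.61 and 10.38 in wild-type ears, a difference of 0.69 ± 0.10 (adjusted p = 0.000384). Col1a1 read 11.49, 11.65 and 11.44 in wild-type ears (0.55 ± 0.10, 0.00261) and Col1a2 read 11.23, 11.30 and 11.12 (0.54 ± 0.10, 0.00217). Col5a2 read 7.80, 7.79 and 7.71 (0.57 ± 0.06, 9.74e-06). Every cub array at 2 h lay above every wild-type array for these 4 chains. At 24 h the differences were 0.58 (0.00146) for Col3a1, 0.58 (0.00158) for Col1a1, 0.49 (0.00418) for Col1a2 and 0.27 (0.0064) for Col5a2, again with no overlap. At 0 h Col5a2 alone of the 4 passed (0.33, 0.00151). Col5a1 was higher by 0.27 at 2 h (0.0345) and 0.26 at 24 h (0.0379), calls lost in 7 and 6 of 13 alternatives. Those of Col1a2 and Col5a2 at 24 h were lost when the 24 h arrays were fitted alone (0.0698 and 0.0918). Col5a3, Col24a1 and Col27a1 were called at no time between the genotypes.

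**Figure D4:**
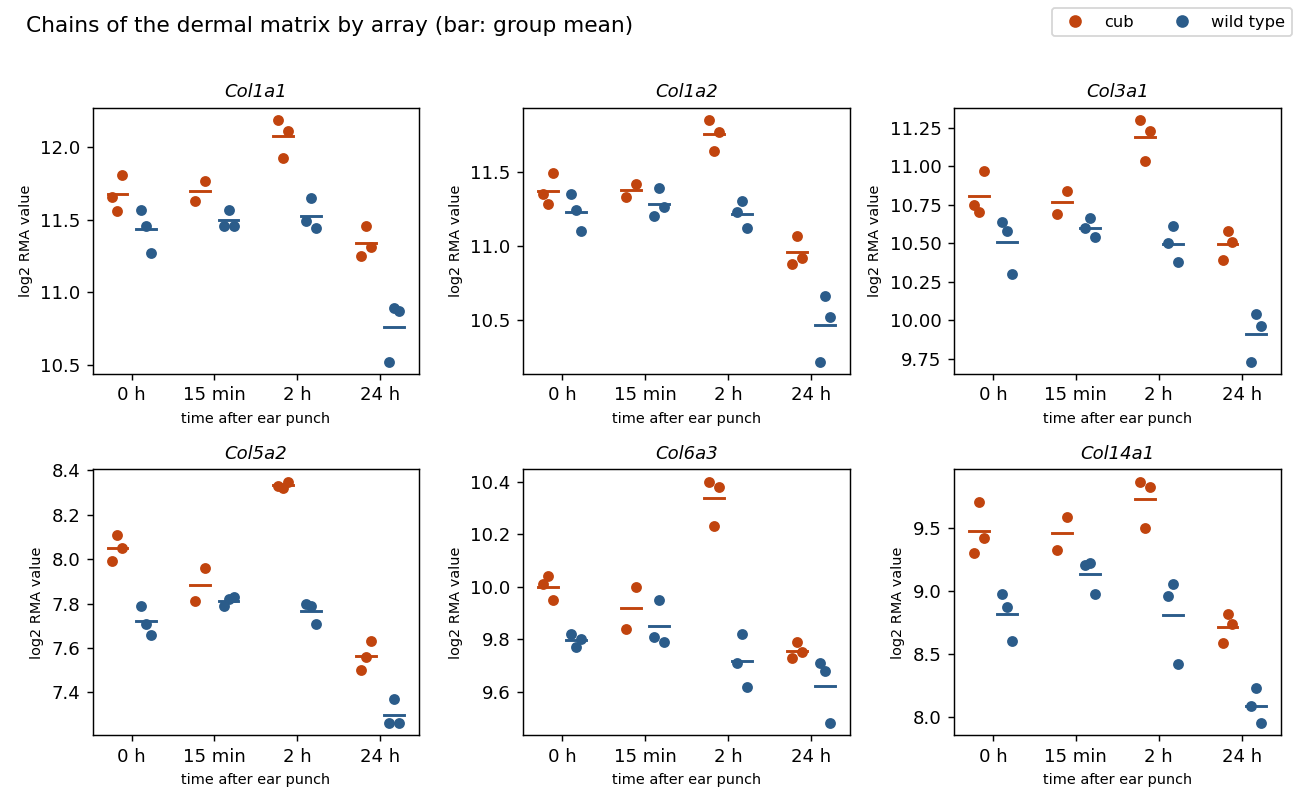
Log2 RMA value of Col1a1, Col1a2, Col3a1, Col5a2, Col6a3 and Col14a1 in each array by time after ear punch, in cub (orange) and wild-type ears (blue), with bars at the group means. At 2 h the cub arrays lie above the wild-type arrays in all 6 panels, with Col3a1 at 11.03 to 11.30 in cub ears against 10.38 to 10.61 in wild-type ears.

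Col6a3 read 9.71, 9.82 and 9.62 in wild-type ears at 2 h, below its cub values, and the difference of 0.62 ± 0.07 (adjusted p = 3.02e-05) was kept in all 13 alternatives. At 0 h and 24 h it passed in neither. Col6a2 was higher at 2 h by 0.32 (0.0252), lost in 4 of 13 alternatives. Col6a1 passed only in the average over times (0.11, 0.0357), lost in 14 of 30. Col15a1 was higher in cub ears at 0 h (0.43, 0.00198) and at 2 h (0.45, 0.00125), and read 8.27, 8.12 and 8.19 in cub ears against 7.67, 7.86 and 7.69 in wild-type ears at 2 h. Col4a1 was higher at 0 h (0.29, 0.0329), 2 h (0.29, 0.0395) and 24 h (0.30, 0.0239), and averaged 0.27 ± 0.04 over the times (0.000111). Its calls at single times were lost in 5, 7 and 4 of 13 alternatives, and the average in none. Col4a2 was higher at 0 h and 2 h (0.26 at both, 0.0227 and 0.0276), lost in 5 and 6 of 13. Col18a1 passed in the average alone (0.25, 0.000742).

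Col4a6 was lower in unwounded cub ears, at -0.33 ± 0.07 (adjusted p = 0.00748, lost when replicate 2 of either genotype at 0 h was left out, up to 0.07). Col17a1 was lower at 2 h. It read 10.94, 10.99 and 10.93 in cub ears, against 11.20, 11.13 and 11.23 in wild-type ears (-0.23 ± 0.06, 0.0223), a call lost in 5 of 13 alternatives. Col11a1 at 2 h was 7.77, 7.68 and 7.67 in cub ears, against 7.46, 7.53 and 7.42 in wild-type ears. Its difference of 0.24 (0.0364) was lost in 11 of 13 alternatives. Col2a1, Col7a1 and the chains of type IX were called at no time, with differences at 2 h of -0.01 (95% interval -0.25 to 0.22), -0.06 (-0.25 to 0.12), and 0.09, -0.19 and -0.10 for Col9a1, Col9a2 and Col9a3. The count at 0 h was 2 to 4, in place of 7, when replicate 2 or 3 of either genotype at 0 h was left out. At 2 h it was 8 or 9, in place of 14, without cub 2 h replicate 1 or without replicate 1 or 3 of wild type at 2 h. At 24 h it was 5, in place of 8, without cub 24 h replicate 3.

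At 15 min no chain was called between the genotypes, where 3.45% of all genes were. An unadjusted p under 0.05 was found for 12 chains and for 4534 of 19938 genes. Yet 41 of 44 were higher in cub ears, as were 11672 of 19938 genes. The median was 0.14 for the chains beside 0.03 over all genes. Among genes whose highest group mean was under 7, all 11 such chains were higher (median 0.18), and so were 7100 of 8797 such genes (median 0.09). The 2 cub arrays of this time lay apart: 42 of 44 chains were higher in replicate 3 than in replicate 2. Leaving out either array leaves that group without a replicate, so calls of such fits are not given. Hair follicle markers also differed here, with 6 of 6 higher in cub ears, and their part was not tested.

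Markers of other cells moved with the genotype difference too, where 3.33% of all genes were higher in cub ears at 0 h and 3.84% at 2 h. Of 7 fibroblast markers, 4 were higher in cub ears at 2 h (median 0.38), with a log2 summed level of 14.03 to 14.10 in cub ears against 13.70 to 13.91 in wild-type ears. Endothelial markers were higher for 4 of 6 at 0 h and 5 of 6 at 2 h, with summed levels of 11.44 to 11.67 in cub ears against 11.10 to 11.20 in wild-type ears at 0 h. Macrophage markers were higher for 4 of 5 at 2 h. The part of these cells in the collagen differences was not tested.

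The wounding change itself differed between the genotypes for 1 chain. At 24 h the interaction, the change in cub minus the change in wild-type ears, passed for Col12a1 at -0.53 ± 0.09 (95% interval -0.72 to -0.33, adjusted p = 0.00828), where 1% of all genes passed. It held in all 19 alternatives, with adjusted p up to 0.0316. Col12a1 was higher in cub ears at 0 h (0.24, 0.0392, lost in 7 of 13 alternatives) and at 2 h (0.36, 0.00312), and lower at 24 h (-0.29, 0.0134; 0.0649 with the 24 h arrays alone). At 2 h it read 9.24, 9.05 and 9.17 in cub ears, against 8.89, 8.85 and 8.65 in wild-type ears. It was thus the only chain called in opposite directions between the genotypes at different times.

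For the fibrillar chains no interaction passed. At 24 h it was 0.34 for Col1a1 (95% interval 0.04 to 0.63, adjusted p = 0.361), 0.35 for Col1a2 (0.07 to 0.63, 0.301) and 0.28 for Col3a1 (0.475). At 2 h it was 0.39 for Col1a2 (0.11 to 0.67, 0.293) and 0.39 for Col3a1 (0.10 to 0.68, 0.311). For Col6a3, a beaded filament chain, it was 0.42 at 2 h (0.21 to 0.62, 0.11). Of 44 chains 9 had an unadjusted p under 0.05 at 2 h, as had 2029 of 19938 genes, and 0.13% of all genes passed. At 15 min no gene passed, and 6 chains had an unadjusted p under 0.05, as had 1740 of 19938 genes. Col4a6, whose fall was larger in wild-type ears in size, had an interaction of 0.37 at 24 h (0.16 to 0.57, 0.0803), which did not pass.

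Many genes of the machinery that modifies and folds collagen chains differed between the genotypes at 2 h. Of 20 genes, 13 were higher in cub ears and none lower (median 0.28, beside 0 over all genes), where 3.84% of all genes were higher and 0.577% lower. They included Serpinh1, the collagen chaperone HSP47 (0.64, adjusted p = 0.000147), the prolyl hydroxylase P4ha2 (0.57) and the lysyl hydroxylase Plod2 (0.48, lost in 8 of 13 alternatives). Of 11 processing and cross-linking genes, 5 were higher and 1 lower (median 0.28). Lox, which cross-links fibrils, was higher by 0.57, and the procollagen protease Tll1 lower by 0.89 on the log2 scale (log2 difference -0.89, 2.08e-05). Of 14 fibril-associated genes 7 were higher and none lower (median 0.25), led by Cthrc1, a secreted protein of repairing matrix (1.11 ± 0.12, 2.08e-05). Some of these genes already differed in unwounded ears at 0 h, where 3.33% of all genes were higher and 1.93% lower. There 1 of the 20 modification genes was higher, near that share. It was Serpinh1 (0.38, 0.0106), a call lost when replicate 2 of either genotype at 0 h was left out (up to 0.0584). Of the 11 processing genes 1 was higher, Loxl1 (0.50, 0.00643; 0.0578 when cub 0 h replicate 2 was left out), and 2 were lower, among them Tll1 by 0.90 (log2 difference -0.90, 1.27e-05). Of the 14 fibril-associated genes 2 were higher at 0 h, Tnxb (0.53) and Thbs2 (0.51), calls lost in 1 and 3 of 13 alternatives. Cthrc1 (0.03), Lox (-0.0033) and Plod2 (-0.07) did not pass there. Dcn, Dpt and Lum stand in the fibril-associated list and among the fibroblast markers.

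Within cub ears at 2 h, 6 of the 20 modification genes, 5 of the 11 processing genes and 3 of the 14 fibril-associated genes rose and none fell, where 7.66% of all genes rose and 4.28% fell. Lox was up by 0.90 (adjusted p = 5.44e-06), Cthrc1 by 0.98 and Plod2 by 0.64. In wild-type ears at 2 h no gene of these 3 lists passed, where 7.97% of all genes did. An unadjusted p under 0.05 was found for 4, 3 and 0 of them, and for 4007 of 19938 genes. The interaction passed at 2 h for Cthrc1 (1.08, 0.0214, lost in 4 of 19 alternatives).

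At 24 h, where 21.1% of all genes were higher and 24.9% lower in cub ears and 20.5% and 22.4% in wild-type ears, the fibril-associated genes were lower for 12 of 14 and higher for none in both genotypes (median -0.50 in cub and -0.44 in wild-type ears). Ogn, a small leucine-rich proteoglycan, fell by 1.44 and by 1.30, and Aspn, another, by 1.04 and by 1.17. Modification genes were higher for 6 and lower for 7 of 20 in cub ears and higher for 5 and lower for 6 in wild-type ears, the wild-type counts lying near the shares of all genes. Plod3, a lysyl hydroxylase and glucosyltransferase, rose by 0.97 in cub and 1.06 in wild-type ears. P4ha3 rose by 0.97 and 0.64 and was higher in cub ears at 24 h by 0.44 (adjusted p = 0.000876). Of the 11 processing genes, 1 was higher and 2 lower in cub ears, and 2 and 5 in wild-type ears. Adamts14, which trims procollagen, fell by 1.56 and by 1.73.

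Collagen receptors were called higher for 4 and lower for 3 of 9 in cub ears at 24 h, and for 5 and 4 in wild-type ears, beside the same shares of all genes. The integrin Itga1 rose by 0.69 and 1.01, the fibroblast receptor Ddr2 by 0.67 and 0.99, and the epithelial receptor Ddr1 fell by 1.04 and by 0.83. Collagen-cleaving proteases rose for 6 of 9 in cub and 5 of 9 in wild-type ears, and fell for 1 and 3. Mmp13, a collagenase, rose by 4.82 ± 0.20 (4.72e-14) in cub and 4.11 ± 0.20 (8.83e-13) in wild-type ears. Mmp1a was higher in cub than in wild-type ears at 24 h by 0.99 (1.1e-06), with 6.78, 6.60 and 6.57 in cub ears, against 5.44, 5.79 and 5.76 in wild-type ears. Neutrophil markers rose with them, 4 of 4 in both genotypes (median 5.08 in cub and 4.34 in wild-type ears), and their part was not tested.

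Of the 44 chains 12 were called in no comparison: Col4a3, Col4a4, Col6a4, Col6a5, Col6a6, Col13a1, Col19a1, Col22a1, Col24a1, Col25a1, Col26a1 and Col28a1. Several were dim. Col19a1, Col6a4, Col4a3 and Col6a5 averaged 5.53, 6.05, 6.26 and 6.28 over all arrays, below the array medians of 6.37 to 6.46. Col6a6 and Col26a1 were brighter, at 7.38 and 7.15, and Col4a6 was called although its average also lay below these medians. For the dim chains, a missing call is not read as a missing response. Over the 10 comparisons of groups at single times, the arrays of the groups overlapped for 11 chains in wild-type ears at 24 h against 0 h. That was the fewest, where 42.8% of all genes were called. The most was 39 in wild-type ears at 2 h against 0 h, where 7.97% of all genes were called. Overlap was not counted over all genes, so these counts are not read as particular to collagens.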

How the data were processed

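Values were read from the deposited series table of 23 arrays (11 cub, 12 wild type). Its log2 values were made by the authors with RMA, and the submitters' processing notes name Affymetrix Expression Console 1.1. For the summarization level, annotation release and genome build, nothing was given in the sources used here. RMA normalizes all arrays to 1 distribution, so a shift shared by all genes would not be seen.

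Of 35556 rows, 21789 carried 1 gene symbol, 1621 several and 12146 none. The row with the highest mean was kept for the 999 genes with more than 1, which left 19938. The fit used limma 3.58.1 under R 4.3.3 (1 mean per group, 15 residual degrees of freedom, eBayes), with two-sided tests in 14 comparisons and Benjamini-Hochberg adjustment over all genes within each, at 0.05. The fit was tested on simulated data. The authors' R/maanova test was not run. The labels call the arrays biological replicates, and the number of arrays limits the precision.

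The members and lists were chosen with earlier results of these data known. Per-array values are given for up to 6 called chains with the largest differences in each comparison, for trimer partners and for Col3a1, Col2a1, Col7a1 and Col17a1, and of other lists up to 4 called members. Values of Col18a1, Rhbdf2 and the second Col6a6 row were added after they were seen. Of 137 listed partner and marker genes, 129 were tested; 8 were not analysed here. Alternatives were array scaling, a filter on dim genes (highest group mean of at least 6), all named rows, the compared arrays alone, the replicate number as a block, robust moderation and leaving out each array. The labels state no pairing for the replicate numbers. Deviations of same-numbered arrays correlated at -0.447 to 0.41 over 77 pairs (median -0.035). Those of differently numbered arrays correlated at -0.41 to 0.447 over 154 pairs (median 0.0097). Deviations within a small group cancel out, so these ranges cannot exclude pairing.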

Additional observations from a re-analysis of the deposited data

Results flagged for a closer look

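Col12a1 stood out because its wounding change at 24 h differed between the genotypes by the test of that difference itself. The interaction was -0.53 ± 0.09 (limma, adjusted p = 0.00828): Col12a1 rose by 0.25 in cub ears and 0.78 in wild-type ears. The 3 cub arrays at 24 h (9.25, 9.18 and 9.30) all lay below the 3 wild-type arrays (9.51, 9.54 and 9.54).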

How the results depend on the processing

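Of 108 calls of a chain in a comparison, 71 were kept in every alternative, 37 were lost in at least 1, and 0 reversed. For 24 h against 0 h, leaving out 1 array gave 23 to 28 in cub ears (27 with all arrays) and 23 to 27 in wild-type ears (28). Leaving out 1 array gave 2 to 7 chains between the genotypes at 0 h (7 with all arrays). At 2 h it gave 8 to 12 (14), and at 24 h 5 to 8 (8). Averaged over the times it gave up to 18 (16), with the lowest count without cub 15 min replicate 3. It gave 2 to 6 in cub ears at 2 h against 0 h (7) and 1 to 2 for the 24 h interaction (1). Leaving out a cub 15 min array leaves 1 array in that group, so the counts of such fits are not given. With only the arrays of the compared groups, 3 chains were called between the genotypes at 0 h and 3 at 24 h. Quantile normalization over the tested genes gave 2 at 15 min and 9 at 2 h. The cause of these moves was not tested, beyond fewer arrays in the fit. In the labels, same-numbered arrays share only a number. For 4 of 23 arrays the mean correlation of deviations with arrays of other groups was highest for their own number. With the replicate number as a block, the counts were 7, 0, 13 and 7 between the genotypes at 0 h, 15 min, 2 h and 24 h, 28 in cub and 27 in wild-type ears at 24 h, and 1 for the 24 h interaction. An average without the 15 min arrays, chosen after seeing the data, called 16 chains. Groups of 2 or 3 arrays limit what small differences could be called.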
